A study of Mus musculus with 6 samples.

Results

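The genes described here encode antiviral effectors that act at membranes or on nucleic acids: Mx1, Mx2, Rsad2, Bst2, Ifitm1, Ifitm2, Ifitm3, Samhd1, Zc3hav1 and Apobec3. They were chosen by name, the deposited values of all transcripts of a gene were summed, and all 10 are among the 15933 genes that passed the filter on low counts. The data are 6 mouse RNA libraries, 1 for each combination of 3 labelled cell types (fibroblasts from ear tissue, a T cell lymphoma, a sarcoma) and 2 labelled arms. In the arm labelled 4OHT, cells were given 1 mM 4-hydroxytamoxifen, which activates the CreERT2 recombinase, and are labelled as Mdm2 deleted. In the arm labelled EtOH they were given the ethanol vehicle. Lymphoma cells were exposed for 6 h, sarcoma cells and fibroblasts for 48 h. All groups share a floxed Mdm2 allele (Mdm2fl/fl) and a p53-null background (p53-/-), the tumours having arisen in such mice and been cultured briefly. Cells were infected with a retrovirus carrying CreERT2 with GFP, or GFP alone, and the labels do not say which of these each library carried. No library is labelled as given 4-hydroxytamoxifen without Cre, so the drug and the labelled deletion cannot be told apart.

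These genes belong to the cell-intrinsic defence against viruses. Type I interferon, made when a cell senses foreign or misplaced nucleic acid, signals through its receptor and JAK kinases to a transcription factor complex. That complex binds the interferon-stimulated response element (ISRE), a tandem GAAA repeat in the promoters of target genes. Interferon gamma acts through another promoter element, the gamma-activated site (GAS). Some of the products act at membranes, where they block fusion, budding or trafficking of virus particles, and others act on viral RNA, DNA or the nucleotides needed to copy them.

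The labels were first checked against the data. Mdm2 stood at 30.5, 31.1 and 31.1 CPM (estimated read counts relative to library size, scaled between libraries by TMM) in the 4OHT libraries labelled fibroblasts, lymphoma and sarcoma, against 28.4, 28.02 and 28.5 CPM in the EtOH libraries (edgeR adjusted p = 0.0539), so its RNA was not lower where the labels call it deleted. Trp53 RNA was counted at 22.3 to 28.5 CPM in the 6 libraries. Whether a part of either gene was removed cannot be read from these values, and libraries are therefore called by their labels. The libraries labelled lymphoma did not carry a T cell profile. Whether labels or files were exchanged was not tested, and every arm and pair value rests on the labels as given. Of 12 T cell markers 1 reached 1 CPM in any library, the kinase gene Lck, which was called higher in the 4OHT libraries (3.96 against 2.03 CPM), and Cd3d, Cd3e, Cd247, Cd8b1 and Cd28 had 0 counts in all 6. The 9 mesenchymal markers summed to 10230 to 10480 CPM in the 4OHT libraries and 17420 to 18190 CPM in the EtOH libraries, and the 8 that could be tested were all called lower. Of these, Pdgfrb was not called by limma on TPM (level per transcript length). The 12 markers of leukocytes, macrophages and plasmacytoid dendritic cells summed to 115 to 133 and 172 to 177 CPM, of which Tcf4 made up 99.4 to 114 and 159 to 163 CPM, and Ptprc, the pan-leukocyte gene, passed the floor of 3 counts only in the 4OHT library labelled sarcoma (0.506 CPM). In bulk RNA, a change in the number of cells of a type cannot be told from a change in RNA per cell. Libraries of the same arm differed by an SD of 0.115 to 0.172 in log2 CPM over genes, against 0.517 to 0.539 between arms, and every pair of libraries differed by more than counting noise. The 3 labelled pairs served as replicates of the arm comparison, and since nothing says that they come from separate cultures beyond their cell type names, p-values measure only the spread between these libraries.

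Of the 10 genes, 8 were higher in the 4OHT libraries at an adjusted p under 0.05 (edgeR quasi-likelihood test, 3 labelled pairs), 0 were lower (0 also at an unadjusted p under 0.05, and 0 by DESeq2 or limma) and 2, Ifitm1 and Ifitm2, were not called. Over all genes tested, 25.0% were called higher and 24.6% lower, so that 50.4% of calls were higher, against 60.2% by limma on log2(TPM + 1). The same 8 had every 4OHT library above every EtOH library, which held for 27.7% of all genes, and 7 of them were at least 2-fold higher in each of the 3 pairs, which held for 3.73%. The median shared log2 fold change was 1.29 for the 10 genes and 0.02 for all genes.

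Promoter sequences are shown for the genes that span the range of responses, from Rsad2 and Bst2, among the most raised, to Ifitm1, which was not called. Sequences come from RefSeq on GRCm38.p6, run 5′ to 3′ on the gene's strand, and position 1 is the first base of the transcript, so that −1 lies just before it. Capitals mark matches to the ISRE core, GAAA followed by any 2 bases and GAAA, searched on both strands, so that a match on the other strand reads TTTC, 2 bases and TTTC.

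Rsad2, chr12:26456453-26456702, minus strand, bases −250 to −1: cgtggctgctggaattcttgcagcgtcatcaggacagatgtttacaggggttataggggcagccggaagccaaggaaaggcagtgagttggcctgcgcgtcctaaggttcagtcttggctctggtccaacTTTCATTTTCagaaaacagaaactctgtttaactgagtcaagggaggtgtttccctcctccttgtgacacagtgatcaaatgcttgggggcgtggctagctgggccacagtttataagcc
Bst2, chr8:71537473-71537722, minus strand, bases −250 to −1: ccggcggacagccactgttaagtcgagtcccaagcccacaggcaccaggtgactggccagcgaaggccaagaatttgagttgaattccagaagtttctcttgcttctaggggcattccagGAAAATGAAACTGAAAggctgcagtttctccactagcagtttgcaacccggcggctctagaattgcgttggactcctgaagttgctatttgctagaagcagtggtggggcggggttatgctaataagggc
Ifitm1, chr7:140967826-140968075, plus strand, bases −250 to −1: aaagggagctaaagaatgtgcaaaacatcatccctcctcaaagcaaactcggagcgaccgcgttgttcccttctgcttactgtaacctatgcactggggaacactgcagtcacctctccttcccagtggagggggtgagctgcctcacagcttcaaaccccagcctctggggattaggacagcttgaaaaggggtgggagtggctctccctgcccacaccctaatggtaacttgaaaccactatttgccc
Ifitm2, chr7:140955988-140956017, minus strand, bases −56 to −27: ccaccaacagGAAAAGGAAAttgctagaga
Ifitm3, chr7:141010706-141010735, minus strand, bases 10 to 39: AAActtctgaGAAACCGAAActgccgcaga
Apobec3, chr15:79892258-79892287, plus strand, bases −150 to −121: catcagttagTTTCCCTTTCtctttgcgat

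The promoter table held 8 of the 10 genes, with 9 promoters, and no entry for Mx1 or Mx2. Within 250 bases before to 50 bases after the start, the ISRE core was found in 5 of the 8 genes, Rsad2, Bst2, Ifitm2, Ifitm3 and Apobec3 (in the first of its promoters), and in 3.44% of all 32851 promoters of that length. Bst2 held 2 overlapping matches between −130 and −115, which print as 1 run of capitals, and Rsad2 held 1 between −120 and −111. Ifitm3 held 2, both after the start (bases 3 to 12, of which the printed window holds the last 3, and 20 to 29), and so had none in the upstream 250 bases alone, where 4 of 8 genes and 2.98% of promoters had a match. The GAS core, TTCNNNGAA, which is its own reverse complement, was found in 3 of 8 genes, Bst2, Ifitm3 and Samhd1, and in 8.30% of promoters. In Bst2 the GAS match (−136 to −128) overlaps the first ISRE match by 3 bases, and in Ifitm3 the GAS match (14 to 22) overlaps the second. Neither core was found in the windows of Ifitm1 and Zc3hav1. The Ifitm1 window lies inside the annotated gene (140967221 to 140969825), so the sequence before its annotated start was not searched. The windows of Apobec3 lie inside its annotated gene as well. Ifitm2, which was not called, holds an ISRE core, and Zc3hav1, which was called higher, holds neither core. Whether a match goes with the response was not tested. These matches describe letters only, and no binding was measured.

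The dynamin-like GTPases Mx1 and Mx2 form rings on membranes or viral ribonucleoproteins, Mx1 in the nucleus and Mx2 in the cytoplasm of mouse cells. Many laboratory mouse strains carry alleles of these genes that make no working protein, and Mx2 is annotated as a polymorphic pseudogene. Mx1 (ENSMUSG00000000386.15, chromosome 16, 97447035 to 97462907, GRCm38) had 50.3, 50.9 and 46.6 CPM in the 4OHT libraries labelled fibroblasts, lymphoma and sarcoma and 1.54, 0.911 and 1.38 CPM in the matching EtOH libraries. Every 4OHT library was far above every EtOH library, and the lowest EtOH value was in the library labelled lymphoma, on 27 counts. The shared log2 fold change of Mx1 was 5.25 ± 0.11 (SE; edgeR adjusted p = 4.16e-12), and it ranked 23rd of 15933 genes by fold change. Its CPM ratio was 32.6 in the pair labelled fibroblasts (95% Clopper-Pearson counting interval 24.2 to 45.0), 55.9 in lymphoma (38.2 to 85.1) and 33.8 in sarcoma (25.6 to 45.5), so the 3 intervals overlapped. On the deposited TPM, which includes a short target described below, the Mx1 ratios were 45.3, 88.4 and 22.4. Mx2 (ENSMUSG00000023341.15, chromosome 16, 97535308 to 97560900) lies 72.4 kb from Mx1 and is read from the other strand. It had 97.2, 98.3 and 94.1 CPM in the 4OHT libraries and 8.32, 8.78 and 8.55 CPM in the EtOH libraries, with SDs of 2.18 and 0.228 CPM. That is a tight pair of groups with no overlap, and the shared log2 fold change of Mx2 was 3.49 ± 0.05 (SE, edgeR adjusted p = 2.63e-13). The Mx2 ratio was 11.7 (10.2 to 13.4), 11.2 (9.85 to 12.8) and 11.0 (9.80 to 12.4) in the 3 pairs, so its intervals overlapped as well.

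The Mx genes are close in sequence, with 82.2% identity over the aligned coding bases, and 14.9% of the 31-base words of Mx1 also occur in Mx2. Per length, over targets of at least 300 bases, the Mx1 level was 0.848, 0.830 and 0.827 times that of Mx2 in the 4OHT libraries and 0.365, 0.192 and 0.261 times in the EtOH libraries. The ratio was higher in all 3 4OHT libraries, with p = 0.1 in a two-sided exact permutation test (adjusted p = 0.133 over 4 ratios), which is the smallest p that 3 against 3 libraries can give. Among the Mx2 targets, the form annotated as polymorphic pseudogene (Mx2-202, 1969 bases) took 94.7% to 100% of the TPM (kallisto's relative level per transcript length) of the gene in every library. The coding form Mx2-201 differs from it by lacking 1 base, 1251 bases from the start, and had counts only in the 2 libraries labelled sarcoma. For Mx1, the reads were spread over 5 targets, and the full-length coding target Mx1-201 (1884 bases) rose from 0.586 ± 0.152 to 23.1 ± 1.10 CPM (SD, n = 3). A target of 196 bases took 16.6% to 71.6% of the TPM of Mx1 on 0.512 to 107 counts, and targets under 300 bases are left out of levels per length.

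Rsad2 encodes viperin, a radical SAM enzyme of the endoplasmic reticulum and lipid droplets that makes a chain-terminating nucleotide from CTP. Rsad2 (ENSMUSG00000020641.16, chromosome 12, 26442746 to 26456452) stood at 191, 189 and 196 CPM in the 4OHT libraries labelled fibroblasts, lymphoma and sarcoma and at 5.58, 5.74 and 7.30 CPM in the EtOH libraries. No EtOH library came near the 4OHT range, and the library labelled sarcoma was highest within each arm. The shared log2 fold change of Rsad2 was 4.94 ± 0.07 (SE, edgeR adjusted p = 2.26e-13), and its CPM ratio was 34.2 (29.2 to 40.3), 32.99 (28.3 to 38.7) and 26.8 (23.7 to 30.4) in the 3 pairs. The full coding target held 86.7% to 92.1% of its TPM, and a shorter target marked for nonsense-mediated decay held the rest. Cmpk2, a nucleotide kinase thought to supply CTP to viperin, lies 12.8 kb away. It was the only expressed neighbour with a change of similar size, from 6.30 ± 0.547 to 113 ± 3.25 CPM (SD), or by 4.16 on the log2 scale (edgeR adjusted p = 1.63e-13). Rnf144a, the neighbour on the other side, fell by 0.94 on the log2 scale (edgeR adjusted p = 1.1e-05).

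Bst2 encodes tetherin, which holds budding virions on the cell surface and is also a marker of plasmacytoid dendritic cells. Bst2 (ENSMUSG00000046718.8, chromosome 8, 71534255 to 71537456) had 373, 370 and 379 CPM in the 4OHT libraries and 38.0, 39.96 and 44.5 CPM in the EtOH libraries. Values within an arm lay close together, with SDs of 5.03 and 3.35 CPM. Its shared log2 fold change was 3.20 ± 0.05 (SE, edgeR adjusted p = 6.72e-13), with CPM ratios of 9.82 (9.22 to 10.5), 9.25 (8.71 to 9.83) and 8.53 (8.10 to 8.98) in the pairs labelled fibroblasts, lymphoma and sarcoma. The intervals of fibroblasts and sarcoma did not overlap, but they cover counting error alone and the difference between pairs was not tested. Siglech, another plasmacytoid dendritic cell marker, averaged 0.0120 CPM in the 4OHT libraries and 0 in the EtOH libraries, where 3 counts correspond to 0.0797 to 0.113 CPM per library. The macrophage markers Itgam, Csf1r and Cd68 were called higher in the 4OHT libraries, Itgam at 0.709 against 0.00885 CPM, although Csf1r was not called with DESeq2 or on TPM. Over the alternatives their log2 fold changes ran from 0.30 to 7.5 (Itgam), 0.08 to 1.405 (Csf1r) and 0.38 to 0.50 (Cd68). Adgre1, another macrophage marker, did not pass the filter on low counts. Of the same list of 12 markers, Tcf4, which made up most of its CPM, was called lower. That call held in every alternative (log2 fold change -0.68 to -0.58), and Il3ra was not called in any. The part of these markers in the values of Bst2 or the other genes was not tested.

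**Figure D1:**
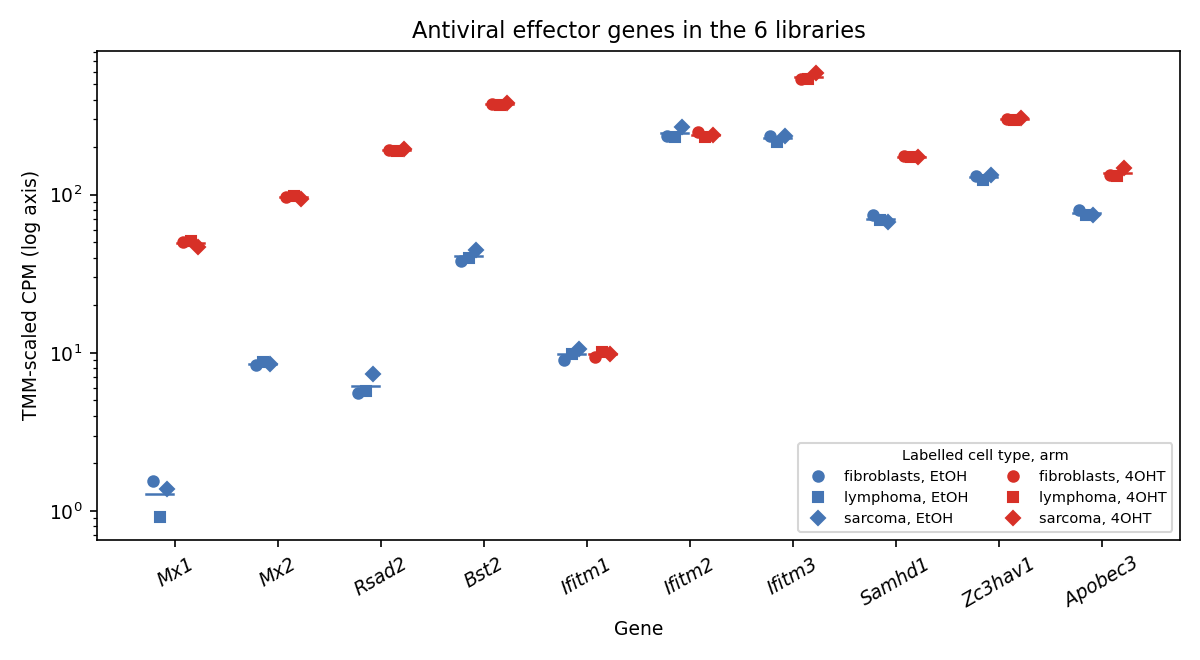
TMM-scaled CPM (log axis) of each of the 10 genes in each library, with circles, squares and diamonds for the labels fibroblasts, lymphoma and sarcoma, blue for EtOH, red for 4OHT and a bar at the mean of each arm. The 3 red points of Mx1 sit between 46.6 and 50.9 CPM above blue points between 0.911 and 1.54, while the points of Ifitm1 and Ifitm2 overlap between arms.

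The Ifitm genes encode small membrane proteins that stiffen endosomal or plasma membranes against viral fusion, and those followed here lie together on chromosome 7. Ifitm2, at 140954837 to 140955987, is followed 11.2 kb on by Ifitm1, at 140967221 to 140969825, and 39.8 kb further by Ifitm3, at 141009586 to 141010770. They differed in both level and response. Ifitm3 (ENSMUSG00000025492.6) had 536, 539 and 589 CPM in the 4OHT libraries labelled fibroblasts, lymphoma and sarcoma and 235, 215 and 237 CPM in the EtOH libraries. Each 4OHT library was more than 2-fold above its pair, and the groups did not overlap. The shared log2 fold change of Ifitm3 was 1.28 ± 0.04 (SE, edgeR adjusted p = 8.12e-10), with CPM ratios of 2.28 (2.22 to 2.35), 2.51 (2.44 to 2.59) and 2.49 (2.42 to 2.55). The interval of fibroblasts lay below the others, a difference that was not tested.

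Ifitm2 (ENSMUSG00000060591.9) stood at 249, 233 and 239 CPM in the 4OHT libraries and at 235, 232 and 268 CPM in the EtOH libraries. The groups overlapped, and the shared log2 fold change of -0.03 ± 0.05 (SE, edgeR adjusted p = 0.692) turned to 0.04 without the pair labelled sarcoma. Ifitm1 (ENSMUSG00000025491.14) was the least abundant of Ifitm1, Ifitm2 and Ifitm3, at 9.40, 10.1 and 9.86 CPM in the 4OHT libraries and 8.95, 9.86 and 10.5 CPM in the EtOH libraries. Its shared log2 fold change was 0.00 ± 0.08 (SE, edgeR adjusted p = 0.988), between -0.05 and 0.05 over the alternatives, with a sign that flipped under other scalings. The counting intervals of its ratio ran from 0.882 to 1.25, 0.869 to 1.22 and 0.799 to 1.09 in the 3 pairs and included 1 in each. For Ifitm2 the intervals were 1.03 to 1.10, 0.967 to 1.04 and 0.864 to 0.919, that of sarcoma lying below the others.

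Within a library the ratio of Ifitm3 to Ifitm2 needs no scaling between libraries. Per length it was 2.33, 2.51 and 2.67 in the 4OHT libraries and 1.08, 1.00 and 0.957 in the EtOH libraries, close to equal in EtOH and more than 2 in each 4OHT library. The ratio of Ifitm3 to Ifitm1 moved likewise, from 14.95 ± 1.43 to 36.1 ± 2.11 (SD, n = 3), and each had p = 0.1 in a two-sided exact permutation test (adjusted p = 0.133 over 4 ratios), the smallest possible. The ratio of Ifitm1 to Ifitm2 was 0.0694 ± 0.00502 in the 4OHT and 0.0680 ± 0.00340 in the EtOH libraries (p = 0.8, exact permutation test). Coding sequences of Ifitm1, Ifitm2 and Ifitm3 share 80.8% to 81.9% of aligned bases, and 9.63% of the 31-base words of Ifitm2 also occur in Ifitm3. A larger share, 53.3%, occurs in Gm45717, an annotated gene overlapping Ifitm2 that was counted at 0.844 ± 0.285 CPM in the EtOH and 1.08 ± 0.166 CPM in the 4OHT libraries (SD). The 3 annotated targets of Ifitm1 have the same length of 321 bases and received equal shares in every library, so only their sum carries information. Ifitm5 (named after its value was seen) and Ifitm6, at 140948958 to 140950291 and 141015699 to 141017924, lie on either side of Ifitm2, Ifitm1 and Ifitm3. They averaged 0.710 and 0.310 CPM in the EtOH and 0.703 and 1.67 CPM in the 4OHT libraries, below Ifitm1. Pgghg and B4galnt4, the nearest flanking genes with at least 1 CPM, had shared log2 fold changes of -0.08 (not called) and -0.28 (lower, edgeR adjusted p = 0.000895, but not called on TPM).

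**Figure D2:**
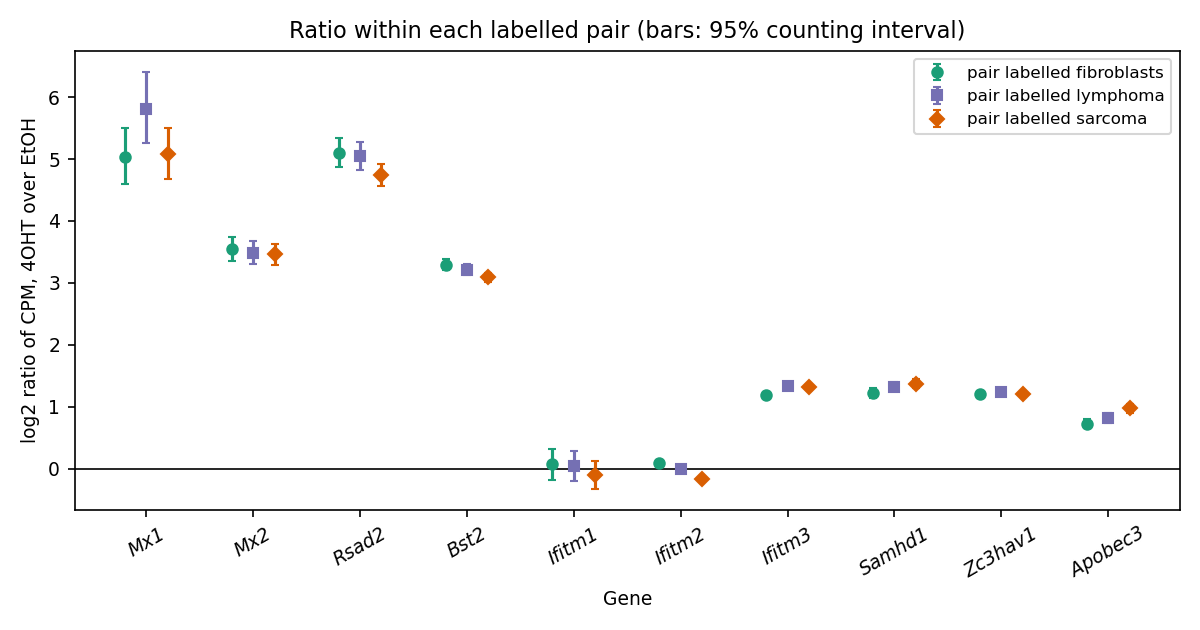
Log2 ratio of CPM, 4OHT over EtOH, for each gene in the pairs labelled fibroblasts, lymphoma and sarcoma, with 95% Clopper-Pearson counting intervals as bars and a line at no difference. Ratios of Mx1 and Rsad2 lie between 4.74 and 5.80, those of Ifitm3, Samhd1, Zc3hav1 and Apobec3 between 0.73 and 1.37, and those of Ifitm1 and Ifitm2 between -0.17 and 0.08.

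The remaining genes act on nucleic acids or their precursors, and the ratio of their mean CPM between arms was 2.47 for Samhd1, 2.32 for Zc3hav1 and 1.79 for Apobec3. Samhd1 encodes a hydrolase that empties the pool of deoxynucleotides and so starves reverse transcription. Samhd1 (ENSMUSG00000027639.16, chromosome 2, 157097533 to 157135265) had 175, 174 and 173 CPM in the 4OHT libraries labelled fibroblasts, lymphoma and sarcoma and 74.8, 69.5 and 67.0 CPM in the EtOH libraries. The 4OHT values had an SD of 0.645 CPM, the smallest relative to the mean among the 10 genes in that arm. That ranking rests on 3 values per gene and was not tested. Its shared log2 fold change was 1.31 ± 0.05 (SE, edgeR adjusted p = 6.86e-10), and the ratios of the 3 pairs were 2.33 (2.22 to 2.45), 2.51 (2.38 to 2.64) and 2.59 (2.46 to 2.72). The intervals of fibroblasts and sarcoma did not overlap, a difference that was not tested. The coding target Samhd1-201 held 59.0% to 66.8% of the TPM, Samhd1-206 24.2% to 28.2% and Samhd1-203, which differs from Samhd1-201 near its end, 2.38% to 12.4%, with overlap between arms for each.

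Zc3hav1 encodes ZAP, which binds CpG-rich viral RNA and brings it to degradation. Zc3hav1 (ENSMUSG00000029826.14, chromosome 6, 38305286 to 38354603) stood at 303, 296 and 307 CPM in the 4OHT libraries and at 132, 125 and 133 CPM in the EtOH libraries. The groups were well apart, and the shared log2 fold change of Zc3hav1 was 1.22 ± 0.04 (SE, edgeR adjusted p = 6.7e-10). Its CPM ratio was 2.29 (2.21 to 2.38), 2.37 (2.28 to 2.47) and 2.30 (2.22 to 2.39) in the pairs labelled fibroblasts, lymphoma and sarcoma, with overlapping intervals. Kallisto's estimates divided these counts among 4 targets. The longest target, Zc3hav1-203 (2991 bases), held 91.2%, 86.5% and 87.1% of the TPM in the EtOH libraries labelled fibroblasts, lymphoma and sarcoma and 79.8%, 80.9% and 81.7% in the 4OHT libraries. The shorter Zc3hav1-202 (2022 bases), which shares its first 1396 bases with Zc3hav1-203 and has another end, held 6.91% to 9.09% in EtOH and 9.24% to 14.96% in 4OHT. Neither share overlapped between arms. In CPM, Zc3hav1-203 went from 118.5 ± 5.94 to 257 ± 4.83 and Zc3hav1-202 from 7.32 ± 1.03 to 24.5 ± 5.71 (SD, n = 3), ratios of 2.17 and 3.35. Each share had p = 0.1 in a two-sided exact permutation test, the smallest that 3 against 3 can give, and an adjusted p of 0.833 over 25 shares, so the shift is a description. The split rests on kallisto's likelihood, which moved Zc3hav1-201 (2370 bases, the start of Zc3hav1-203 without its last part) between 0.0122% and 5.08% within the 4OHT libraries.

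Apobec3 encodes a cytidine deaminase that edits and blocks retroviral DNA, and the mouse has a single, alternatively spliced copy. Apobec3 (ENSMUSG00000009585.18, chromosome 15, 79891659 to 79915906) had 133, 131 and 147 CPM in the 4OHT libraries labelled fibroblasts, lymphoma and sarcoma and 80.4, 74.3 and 74.8 CPM in the EtOH libraries. It showed the smallest fold change of the 8 called genes, with a shared log2 fold change of 0.84 ± 0.05 (SE, edgeR adjusted p = 1.12e-07). The CPM ratio was 1.65 (1.57 to 1.74), 1.76 (1.67 to 1.86) and 1.96 (1.87 to 2.06) in the 3 pairs, and the intervals of sarcoma and the others did not overlap, a difference that was not tested. A target of 1224 bases was the main coding form, with 67.6 ± 3.80 CPM in the EtOH and 120 ± 7.59 CPM in the 4OHT libraries (SD). Another, of 1323 bases, differs from it only by 99 more bases inside the coding sequence and was listed at 0 in all 6 libraries. The share of the main form in the TPM of the gene was lower in the 4OHT libraries, 46.8% to 49.8% against 50.2% to 61.0%, with p = 0.1 in the exact permutation test (adjusted p = 0.833 over 25 shares). Targets under 300 bases made up 34.9% to 50.2% of the TPM of Apobec3 on at most 215 counts each, against 1888 to 3563 for the main form.

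**Figure D3:**
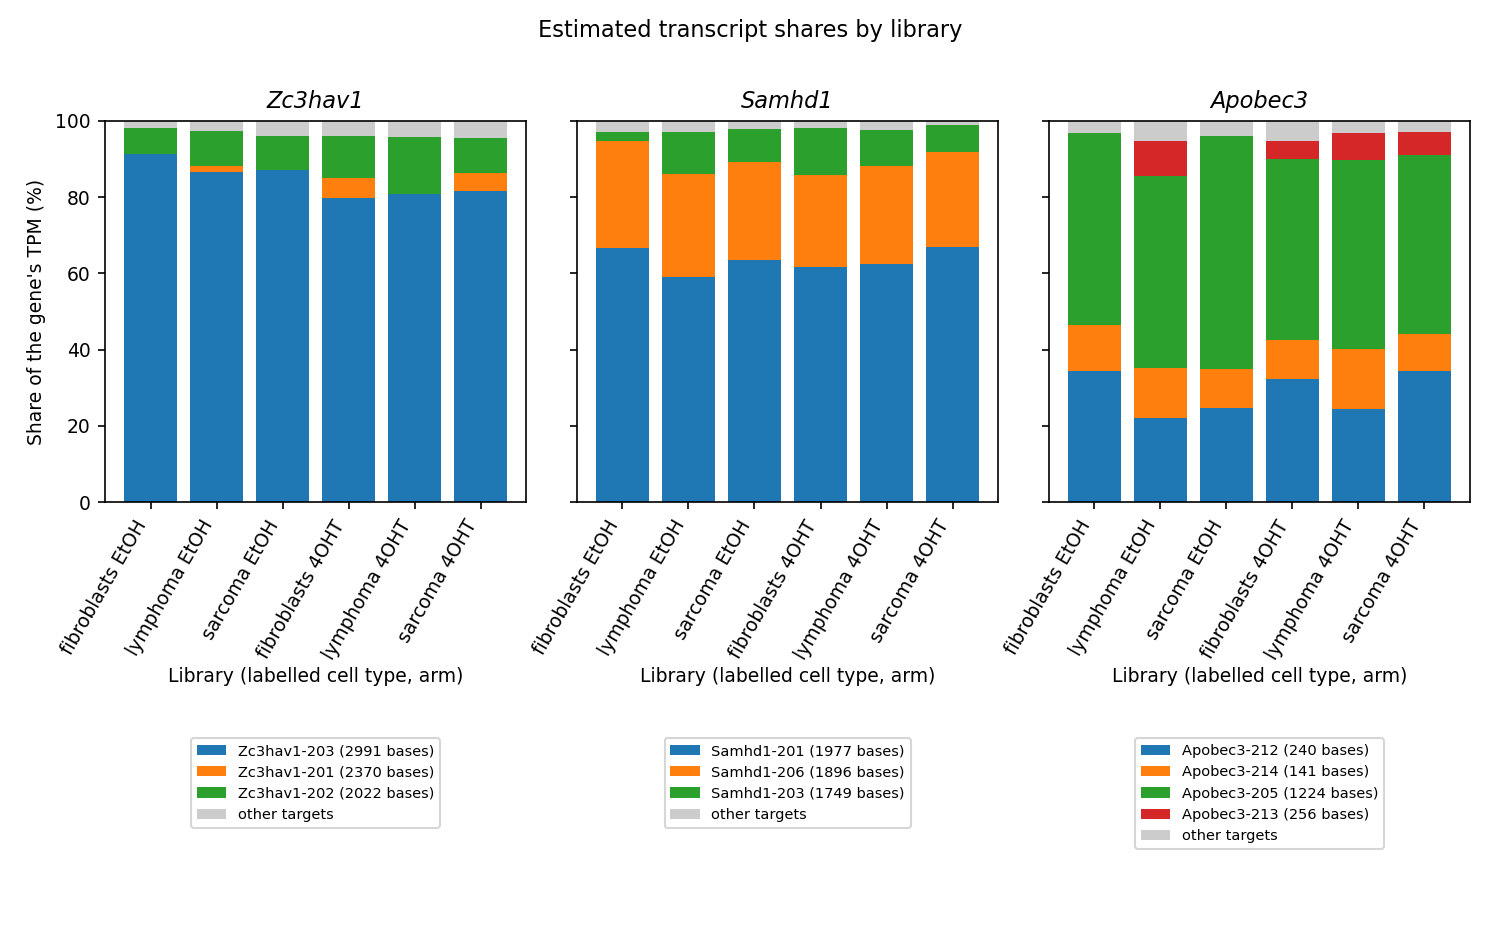
Share (%) of the TPM of Zc3hav1, Samhd1 and Apobec3 held by each target with at least 5% in any library, for the 3 EtOH libraries (left) and the 3 4OHT libraries (right) of each panel, with other targets in grey. Zc3hav1-203 holds 86.5% to 91.2% in EtOH and 79.8% to 81.7% in 4OHT, while the shares of Samhd1 targets overlap between arms.

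Per length, over targets of at least 300 bases, Ifitm3 was the most abundant of the 10 genes in both arms, at 399 ± 25.1 TPM in the EtOH and 983 ± 57.6 TPM in the 4OHT libraries (SD, n = 3). In EtOH it was followed by Ifitm2 (394 ± 32.2 TPM), whose range overlapped that of Ifitm3, then by Bst2 (49.96 ± 3.90), Apobec3 (29.5 ± 1.40), Ifitm1 (26.8 ± 1.89), Zc3hav1 (20.4 ± 0.728), Samhd1 (17.4 ± 1.06), Rsad2 (3.09 ± 0.498), Mx2 (2.04 ± 0.0381) and Mx1 (0.552 ± 0.167). The ranges of Apobec3 and Ifitm1 overlapped too, and all other neighbours in this order had separate ranges. In 4OHT the order became Ifitm3, Bst2 (466 ± 22.7 TPM), Ifitm2 (393 ± 13.3), Rsad2 (97.2 ± 5.12), Apobec3 (53.5 ± 2.01), Zc3hav1 (49.3 ± 2.23), Samhd1 (43.8 ± 2.89), Ifitm1 (27.3 ± 2.50), Mx2 (23.5 ± 1.83) and Mx1 (19.6 ± 1.49). There the ranges of Apobec3 and Zc3hav1 overlapped, and those of Ifitm1 and Mx2. Rsad2 thus moved from the eighth place to the fourth, Bst2 passed Ifitm2, and Ifitm1 dropped from the fifth place to the eighth while its own ranges in the 2 arms overlapped.

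The interferon signalling list gives the setting of these genes. Of 16 genes, 14 rose and 1 fell, against 25.0% called higher and 24.6% lower over all genes tested. The median shared log2 fold change was 0.72 against 0.02 for all genes, and the number called higher was 10 on TPM and 12 with DESeq2 or without the pair labelled lymphoma. Usp18, which removes ISG15 and damps the receptor, rose by 3.50, Irf7, the amplifier of interferon production, by 3.31, and Stat2, a signal transducer of the type I interferon receptor, by 1.81. Rises were small for Ifnar1 (0.14), Ifngr1 (0.19), Ifngr2 (0.20), Jak1 (0.25), Ifnar2 (0.25) and Il10rb (0.35), while Jak2 rose by 1.11. These 7 were named after their values were seen. Ifnar1 was called in only 5 of 12 alternatives, its call being lost with DESeq2, on TPM, with no filter and with any pair left out. The calls of Ifngr1, Jak1 and Ifnar2 were lost on TPM, that of Ifngr1 also without the pair labelled lymphoma. That of Ifngr2 was lost with DESeq2, and Il10rb and Jak2 were called in every alternative. Irf3, the constitutive partner of IRF7 in switching on interferon, fell by 0.47 on the log2 scale (edgeR adjusted p = 3.74e-05).

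Other effectors of the same kinds were called in part. Of 15 other genes acting on nucleic acids, 11 rose and 3 fell, against 25.0% called higher and 24.6% lower over all genes tested, with a median of 1.30. Zbp1, a sensor of Z-form nucleic acid, rose by 4.35, the RNA-binding Ifit1 and Ifit2 by 3.91 and 3.20 and the exonuclease gene Trex1 by 2.27. The RNase H2 subunit genes Rnaseh2c and Rnaseh2a (-0.31 and -0.20) and Khnyn, a nuclease cofactor of ZAP (-0.15), fell, but none of these was called on TPM. With DESeq2 the calls of Rnaseh2a and Khnyn were lost as well, and that of Khnyn also without the pair labelled lymphoma or sarcoma. Trim25, another ZAP cofactor named here after its value was seen, rose by 1.60. Of 11 other membrane effectors tested, 5 rose and 1 fell, against the same 25.0% and 24.6% over all genes, with a median of 0.10. Gbp5 and Gbp2, which impair furin and so the maturation of viral envelopes, rose by 5.33 and 4.23, Ch25h, which makes the antiviral sterol 25-hydroxycholesterol, by 3.27 and Ly6e by 1.25. Serinc5, which limits retroviral infectivity, fell by 0.21 (edgeR adjusted p = 0.012), a call that was lost without the pair labelled lymphoma, on TPM and with DESeq2.

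Relatives in sequence did not follow as a block. Of 12 tested relatives 5 rose and 3 fell, against 25.0% called higher and 24.6% lower over all genes tested, with a median of 0.08. Parp12, a relative of ZAP, rose by 2.64, Ifitm6 by 2.43 from 0.310 to 1.67 CPM and Apobec1, an RNA-editing deaminase, by 1.14. Zc3hav1l, which lies 6.03 kb from Zc3hav1, had a log2 fold change of -0.38 (edgeR adjusted p = 0.0392), lost without the pairs labelled fibroblasts or sarcoma, with DESeq2 and on TPM. Among the dynamins, GTPases related to the Mx proteins, Dnm1 was called lower (-0.28) and Dnm2, named after its value was seen, was called higher (0.22), and neither was called on TPM.

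Genes that supply deoxynucleotides, on the opposite side of the balance from SAMHD1, were called lower in part. Of 15, 6 fell and 2 rose, against 24.6% called lower and 25.0% higher over all genes tested, with a median of -0.12. By limma on log2(TPM + 1) 0 were called lower, where 2 had an unadjusted p under 0.05, against 5 by DESeq2. Dguok (-0.30), Rrm2 (-0.27) and Cmpk1 (-0.24) were the largest decreases, and besides Cmpk2 the only called increase was Nme1 (0.13), lost with DESeq2, on TPM, with no filter and without the pair labelled fibroblasts or lymphoma. Of 9 partner proteins of viperin and IFITM3, 1 rose and 4 fell, against 25.0% called higher and 24.6% lower over all genes tested. Vapa, an endoplasmic reticulum tether bound by both, rose by 0.30, while Nedd4, the ubiquitin ligase that turns over IFITM3, fell by 0.48, Hadhb by 0.31 and Fdps, the farnesyl diphosphate synthase, by 0.22. The remaining decrease, of Ciao1 (-0.13, named after its value was seen), was called in 4 of 12 alternatives and changed sign on TPM. Hadhb and Fdps were not called on TPM either, where Nedd4 was the only 1 of the 9 called lower.

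**Figure D4:**
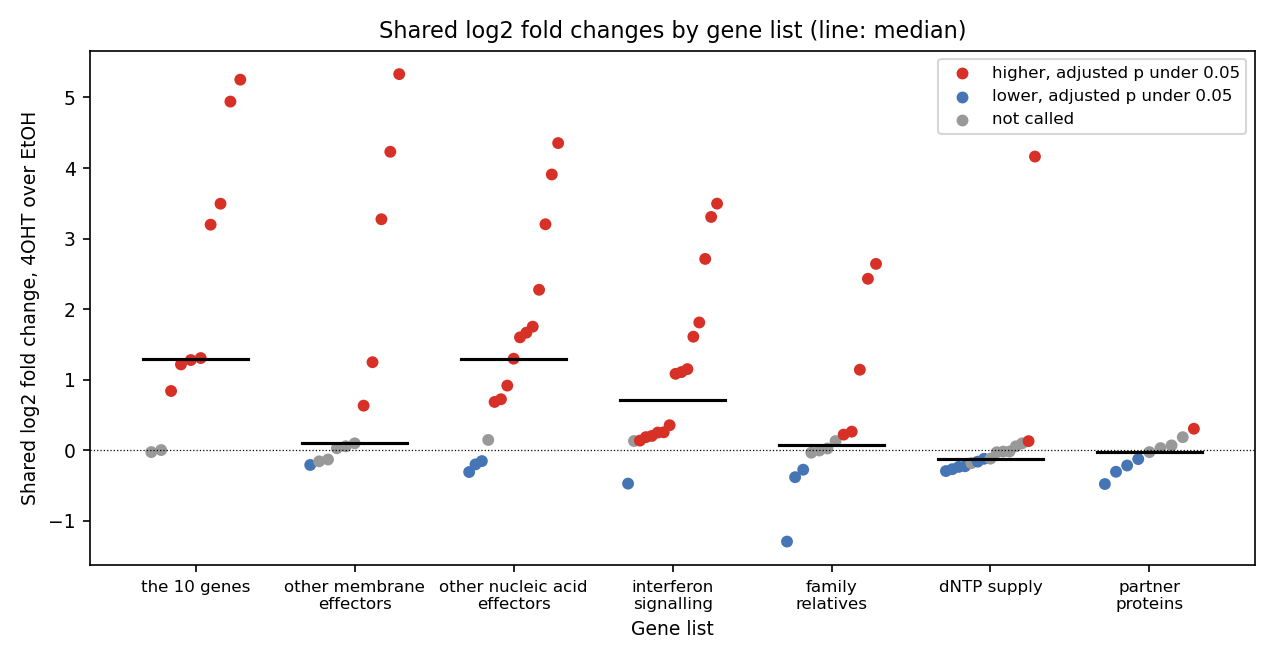
Shared log2 fold change (4OHT over EtOH) of each tested gene in the 10 genes and 6 other lists, red for higher, blue for lower and grey for not called, with a line at each list's median. The medians are 1.29 for the 10 genes, 1.30 for other nucleic acid effectors, 0.72 for interferon signalling and between -0.12 and 0.10 for the others.

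The nearest expressed protein-coding genes on each side of the 10 loci gave 14 distinct neighbours outside the list. Of these, 3 were called higher, 5 lower and 6 not called, against 25.0% called higher and 24.6% lower over all genes tested. Apart from Cmpk2, the increases were small, Rbl1 beside Samhd1 at 0.38 and Mvb12a beside Bst2 at 0.25, the latter not called on TPM. Prdm15 and Wrb, which flank the Mx pair at 231 kb and 1289 kb, had log2 fold changes of -0.09 and -0.04 and were not called. Apobec3 lies between Cbx6 (-0.24, not called on TPM) and Rpl3 (-0.44), both called lower.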

How the data were processed

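RNA was read from rRNA-depleted, stranded total RNA libraries, per the labels' protocols. The deposited estimated counts and TPM per transcript come from kallisto 0.43.0 run by the authors on a GRCm38 transcript set (tool and build per the submitters' processing notes); the annotation release and strand setting are not given in the sources used here. Of 76055 targets, 75049 matched GENCODE M21 by identifier without version, and the other 1006, at most 0.410% of a library, were left out. Counts were summed per gene and rounded, and totals were 26243064 to 37517726 per library. Intervals and floors (3 counts) cover counting error only.

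The main test was edgeR 4.0.16 (R 4.3.3) over all 6 libraries, TMM, filterByExpr, quasi-likelihood, two-sided, Benjamini-Hochberg over 15933 genes, blocked by cell type label, which leaves 2 residual degrees of freedom. Each SE is the fold change divided by the square root of F. The pairing comes from the labels, and the correlation of deviations within a pair was -0.00931, 0.0984 and 0.0791. Within a pair no test is possible. Alternatives used DESeq2 1.42.0, limma 3.58.1, other scalings and filters, no block and each pair left out. Genes and lists were chosen with earlier results of these data known. Named genes were all 10 members, of each other list the 4 called genes with the largest change and up to 3 called in the opposite direction, nearest expressed neighbours (at least 1 CPM) and transcripts with at least 10% of a gene's TPM. Shfl was on a list but is not analysed here. Label-check and marker genes and Gm45717, which overlaps Ifitm2, were named besides, others outside this rule are marked in the text, and some that it names are counted in their lists but not reported here. Other tools were Python 3.11.15, pandas 2.3.3, numpy 2.4.6, scipy 1.17.1 and Biopython 1.88.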

Additional observations from a re-analysis of the deposited data

Results flagged for a closer look

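Ifitm1 and Ifitm2 had ratios that pointed in different directions between labelled pairs, each pair being 1 library against 1, and the difference was not tested. The log2 CPM ratio of Ifitm1 was 0.0699 in the pair labelled fibroblasts, 0.0419 in lymphoma and -0.0962 in sarcoma. That of Ifitm2 was 0.0849, 0.00138 and -0.166 in the same order.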

How the results depend on the processing

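The 8 genes called higher kept their direction and stayed past the threshold in every alternative that tested them, and Mx2, being no protein-coding gene in the annotation, was absent where only such genes were kept (7 called). Of 119 gene values under alternatives, 8 changed sign, all of genes not called. Ifitm1 stood at -0.00139 with DESeq2 size factors, -0.00183 with library size only, -0.0248 with no filter, -0.00417 with a mean of at least 5 CPM and -0.00329 with no replicate block, and between -0.0523 and 0.0544 with 1 pair left out, negative without fibroblasts or lymphoma. Ifitm2 ranged from -0.106 to 0.0420 with 1 pair left out, positive without sarcoma. With no replicate block, 8 of the 10 genes were called higher, as with it. Over all genes, 2541 were called higher and 2489 lower by DESeq2, 2352 and 1552 by limma on log2(TPM + 1) and 2401 and 1589 on log2(TPM + 0.1), which raised the share of higher calls from 50.4% to 60.2%; the cause was not tested. Relatives called higher numbered 3 with at least 5 CPM, where fewer genes are tested, and 3 on each TPM scale. Partner proteins called higher were 2 with protein-coding genes only, and dNTP genes called lower were 0 on each TPM scale. Of 60 pair ratios, 11 left their counting interval, all on TPM, where Mx1 went to 45.3, 88.4 and 22.4 in the pairs labelled fibroblasts, lymphoma and sarcoma. Most of the others were in the pair labelled lymphoma, all upward. There Bst2 went to 10.14, Ifitm2 to 1.099, Ifitm3 to 2.752, Samhd1 to 2.739, Zc3hav1 to 2.655 and Apobec3 to 2.024. Ifitm3 fell to 2.209 in the pair labelled fibroblasts, and Apobec3 rose to 2.452 in that labelled sarcoma. Levels over targets of at least 300 bases were chosen after seeing the data. Depth limits Mx1 most, with 27 to 52 counts per EtOH library.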

Other observations

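Summed over the 10 genes, the deposited TPM was 973, 908 and 1016 in the EtOH libraries labelled fibroblasts, lymphoma and sarcoma and 2126, 2333 and 2238 in the 4OHT libraries, or 0.0908% to 0.102% and 0.213% to 0.233% of all TPM.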
